A study of Ovis aries with 40 samples.

Results

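The genes described here are those of fat cells and of fatty acid synthesis and storage, as measured in whole skeletal muscle of sheep. They were chosen by name, as FASN, ACLY, LPL, SCD, ACACA, ADIPOQ, FABP4, PLIN1, DGAT2 and LEP. Of these 10 genes, 9 had at least 1 probe set that is annotated with that gene alone, out of 9155 such genes on the array, and 12 probe sets stood for them. Where a gene had several, the brightest on average was taken. PLIN1, which encodes the coat protein of the fat droplet, was not analysed here. Detection required a mean signal over the animals of at least 61.8, which is the median of all probe sets other than controls, and 8 of the 9 genes were among the 6360 that met it. LEP, the gene of leptin, was not.

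The samples were longissimus dorsi muscle (LM, the eye muscle of the loin) of 40 Poll Dorset sheep at 78 weeks of age, with 1 array per animal. The high muscling group was 19 animals from 3 sires with a high estimated breeding value for eye muscle depth, 7 by sire 2, 4 by sire 7 and 8 by sire 11. The low muscling group was 21 animals from 3 sires with a low value, 8 by sire 5, 8 by sire 16 and 5 by sire 17. The breeding value belongs to the sire, each sire had progeny in 1 group only, and the labels name no treatment. Animals of 1 sire are half-sibs and not independent draws of their group. RNA of sheep was hybridised to an array designed for cattle, and values are MAS5 signals on a linear scale.

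Muscle holds fat both as droplets inside its fibres and in fat cells that lie between the fibre bundles, the marbling of meat. A cell makes fatty acids by turning acetyl-CoA into malonyl-CoA and then joining these units, and in ruminants much of the acetyl-CoA comes from acetate of the rumen. Fatty acids can also be taken from the blood, where lipoprotein lipase frees them from triglyceride, and both sources are stored as triglyceride. Adiponectin and leptin are hormones made by fat cells, and FABP4 is an abundant carrier of fatty acids there, also present in capillary endothelium.

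The tissue showed the muscle genes of its label. All 6 markers of muscle fibres that were listed were detected, and their summed signal was 128017 to 178611 in the high muscling group and 125090 to 170275 in the low muscling group. ACTA1, the skeletal actin, had 15986.7 to 31557.4 in the high and 16741.8 to 31283.3 in the low muscling group. The median signal of an array lay between 56.1 and 67, and the correlation between arrays over the detected genes between 0.902 and 0.963. The log2 ratio of the 3′ over the 5′ control probe set of GAPDH, a sign of RNA integrity, was 0.071 to 0.466 in the high and -0.063 to 0.401 in the low muscling group. Precision is limited by the number of animals and, between the groups, by the 3 sires in each.

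The enzymes of fatty acid synthesis varied between animals far more than between the groups, as did the median detected gene. Differences between the groups made up 11.1% of the variance of log2 signals for ACLY, 12.8% for ACACA, 0.37% for FASN and 3.9% for SCD. The median over all detected genes was 5.4%. ACLY (bovine gene 511135), which splits citrate to supply acetyl-CoA, had signals of 60.2 to 389.9 with a median of 86.9 in the high muscling group, against 88.7 to 643.3 with a median of 120.3 in the low muscling group. The groups overlapped through their upper tails, but 10 of the 19 high muscling animals, from all 3 sires, lay below every low muscling animal. ACACA (gene 281590) makes malonyl-CoA, the committed step. It had 31.5 to 150.0 with a median of 90.5 in the high muscling group, against 17.3 to 105.3 with a median of 65.4 in the low muscling group. It was close to the detection limit, with 29 of 40 animals at or above it, and its second probe set had a mean of 19.8 and did not follow the first (r = -0.18, permutation p = 0.278).

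FASN (gene 281152), the synthase that builds palmitate, had 89.3 to 997.7 with a median of 185.7 in the high muscling group, against 104.5 to 2015.7 with a median of 141.1 in the low muscling group. SCD (gene 280924), the desaturase that makes monounsaturated fatty acids, had 185.0 to 2910.4 with a median of 357.4 in the high muscling group, against 159.3 to 3750.9 with a median of 266.7 in the low muscling group. Both genes had a long upper tail in each group. From the lowest to the highest animal the signal differed 22.6-fold for FASN and 23.5-fold for SCD.

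**Figure D1:**
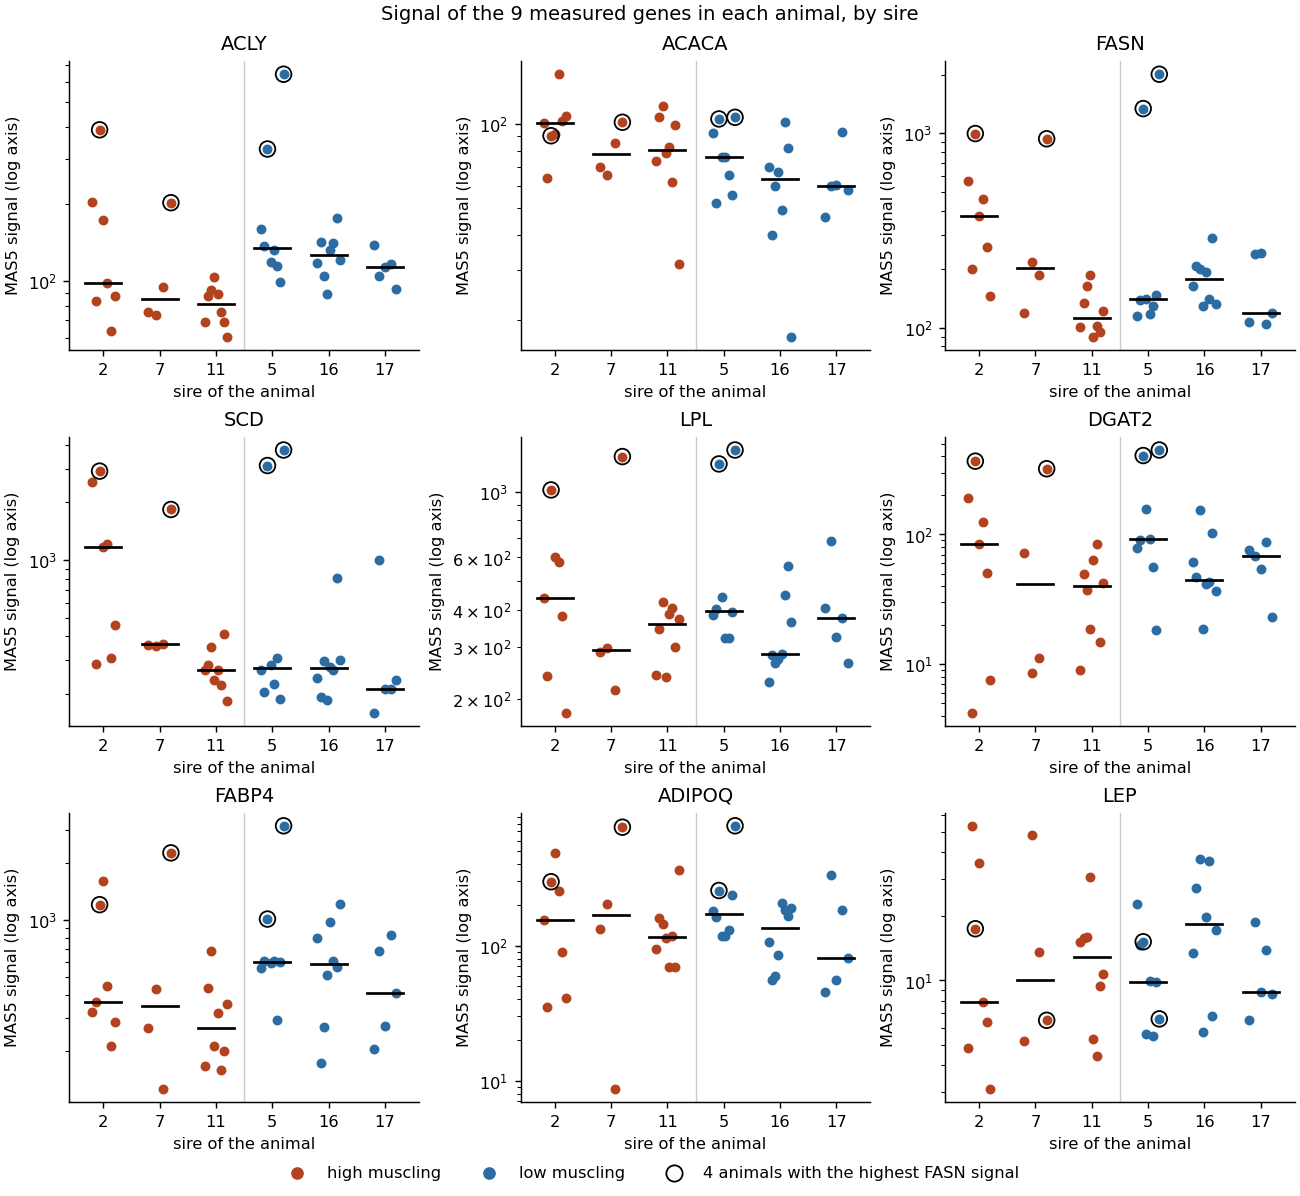
MAS5 signal on a log axis of the 9 measured genes in each of the 40 animals, by sire, with high muscling sires 2, 7 and 11 on the left and low muscling sires 5, 16 and 17 on the right; black lines are medians and rings mark the 4 animals with the highest FASN signal. The ringed animals, at 938.1 to 2015.7 for FASN, are also the 4 highest for LPL and DGAT2, and on the LEP probe set plotted none of them is among the 10 highest.

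Uptake and storage showed the same spread within groups. LPL (gene 280843), the lipase on the capillary wall, which muscle fibres make as well as fat cells, had 179.2 to 1314.4 with a median of 370.6 in the high muscling group, against 227.1 to 1383.1 with a median of 375.5 in the low muscling group. DGAT2 (gene 404129), which adds the last fatty acid to a triglyceride, had 4.2 to 367.9 with a median of 49.8 in the high muscling group, against 18.2 to 448.5 with a median of 68.3 in the low muscling group. Only 19 of 40 animals reached the detection limit for DGAT2, so its lowest signals carry little information. Its mean of 93.2 passed that limit only through its 4 highest animals, and its median over the 40 was 58.8. The spread and the correlations of DGAT2 given below are therefore a description.

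The genes that mark fat cells themselves were present in most animals. FABP4 (gene 281759) had 126.7 to 2268.8 with a median of 322.0 in the high muscling group, against 172.9 to 3159.3 with a median of 594.7 in the low muscling group. Its second probe set, at a mean of 134, followed the first over the 40 animals (r = 0.83, rho = 0.77, permutation p = 1e-05 for each, the smallest that 100000 permutations can give). ADIPOQ (gene 282865), the gene of adiponectin, had 8.7 to 752.6 with a median of 132.7 in the high muscling group, against 45 to 771.2 with a median of 162.1 in the low muscling group. It reached the detection limit in 33 of 40 animals. In whole muscle, fewer fat cells and less RNA per fat cell cannot be told apart.

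LEP (gene 280836) reached the detection limit in 0 of 40 animals on its brighter probe set. There its signals were 3.1 to 53.3 with a median of 10.7 in the high muscling group, against 5.5 to 37.2 with a median of 13.4 in the low muscling group. A second probe set had a mean of 12.6 and reached the limit in 2 animals, and the pair showed no relation (r = 0.017, permutation p = 0.918). Fitted without the detection filter, its log2 difference was -0.08 (95% interval -0.92 to 0.75, limma adjusted p = 0.955), and differences in LEP were not detectable at this signal.

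All 8 detected members varied more than the median detected gene, and 5 of them far more. On the log2 scale DGAT2 had a standard deviation of 1.60, above 99.95% of the detected genes, and of 1.40 (99.91%) when signals below 14.7, the 20th percentile, were raised to it. Without that floor SCD followed with 1.26 (99.6%), then ADIPOQ with 1.22 (99.4%), FASN with 1.09 (98.3%) and FABP4 with 1.07 (98.1%). ACLY and LPL had 0.70 each (88.02% and 87.85%) and ACACA 0.57 (79.3%), against a median of 0.38 over all detected genes. Most of this was variation among the progeny of 1 sire. Differences within sires made up 74.7% of the variance of FASN, 74.1% of SCD, 71.5% of ACLY and 75.5% of ACACA, beside a median of 74.1% over all detected genes. The share was 93.3% for ADIPOQ, 87.5% for LPL, 86.2% for DGAT2 and 82.2% for FABP4.

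A few animals carried the upper tail of nearly every member. Animal 94 of sire 5, in the low muscling group, had the highest signal of all 40 animals for FASN (2015.7), ACLY (643.3), LPL (1383.1), SCD (3750.9), ADIPOQ (771.2), FABP4 (3159.3) and DGAT2 (448.5). Its half-sib, animal 32 of sire 5, was second for FASN (1341.3), SCD (3113.1) and DGAT2 (406.6) but at rank 7 for ADIPOQ (255.7). In the high muscling group, animal 46 of sire 2 was at rank 3 for FASN (997.7) and SCD (2910.4), at rank 5 for FABP4 (1204.1) and at rank 6 for ADIPOQ (297.1).

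Animal 98 of sire 7, also in the high muscling group, combined the fourth FASN signal (938.1) with the second for ADIPOQ (752.6), FABP4 (2268.8) and LPL (1314.4). These 4 animals came from 3 sires and both groups. For FASN, LPL and DGAT2 they were the 4 highest of all animals, and for ACLY and SCD all 4 were among the 5 highest. For ACACA 1 of the 4 was among the 5 highest and 3 were among the 10 highest. For LEP the probe sets disagreed. On the brighter one 0 of the 4 were among the 10 highest. On the second one animal 46 (79.2), animal 32 (65.5) and animal 98 (31.7) were at ranks 1, 2 and 4 and animal 94 (5.8) was at rank 27. The GAPDH ratio of the 4 animals was 0.073 to 0.349, inside the range of -0.063 to 0.466 in the other 36 animals. The same ratio for ACTA1 was -0.236 to 0.032 in the 4 animals, reaching below the -0.175 to 0.181 of the other 36. The lowest value was that of animal 98, and the 4 progeny of its sire 7 had -0.236 to -0.108. The medians of the other sires were -0.062 to 0.009. The part of RNA quality in these values was not tested.

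High against low muscling, the comparison for which the sires were chosen, gave no called difference in any member. The test was limma's moderated test on log2 signals with sire as a random block, and a call was a Benjamini-Hochberg adjusted p under 0.05 over all 6360 detected genes. Of the 8 detected members 0 were called and 0 had an unadjusted p under 0.05, while 7.78% of all detected genes were called (145 higher and 350 lower in the high muscling group). The intervals were wide. The median difference of the 8 members was -0.11 on the log2 scale, beside -0.04 over all detected genes.

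Among the enzymes of synthesis, the log2 difference of ACLY was -0.43 (95% interval -1.0 to 0.13, limma adjusted p = 0.386). That of ACACA was 0.40 (-0.06 to 0.86, adjusted p = 0.309), that of FASN was 0.19 (-0.71 to 1.10, adjusted p = 0.861) and that of SCD was 0.55 (-0.50 to 1.59, adjusted p = 0.590). Each interval included 0. For ACACA the mean over its probe sets turned the direction, to -0.24 (adjusted p = 0.681), and FASN turned to -0.21 without the progeny of sire 2 (adjusted p = 0.872).

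LPL differed by -0.08 (-0.69 to 0.53, limma adjusted p = 0.917) and DGAT2 by -0.79 (-2.14 to 0.57, adjusted p = 0.539). The interval of DGAT2 is the widest of the 8. Of the markers of fat cells, FABP4 differed by -0.55 (-1.44 to 0.34, adjusted p = 0.509) and ADIPOQ by -0.15 (-1.22 to 0.93, adjusted p = 0.917). The second probe set of FABP4, fitted beside all probe sets, gave -0.67 (adjusted p = 0.280). Without the progeny of sire 5, LPL and ADIPOQ turned direction, to 0.11 (adjusted p = 0.940) and 0.16 (adjusted p = 0.959).

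**Figure D2:**
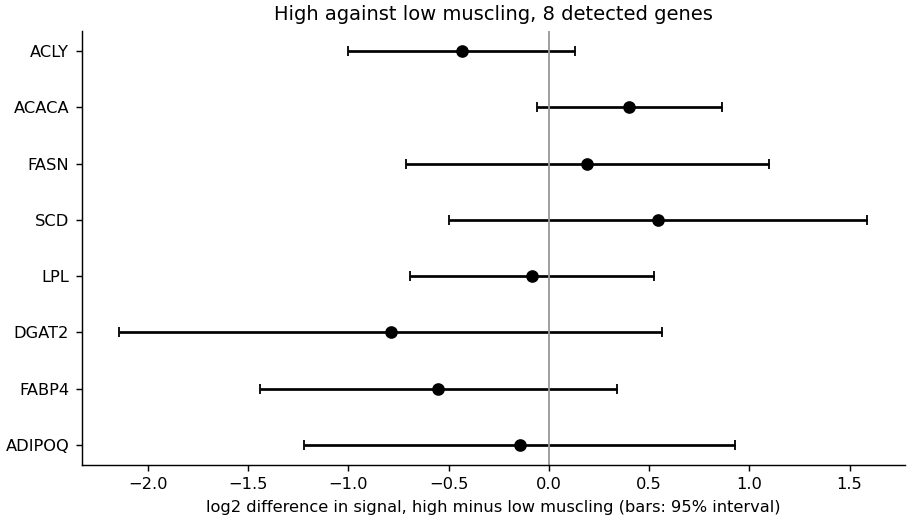
Log2 difference in signal, high minus low muscling, of the 8 detected genes, with 95% intervals from limma (19 high and 21 low muscling animals, sire as random block). All 8 intervals include 0, and that of DGAT2, from -2.14 to 0.57, is the widest.

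Calls between the groups were seen among markers of another cell type. Of 5 fibroblast markers, 4 were called lower in the high muscling group, beside 7.78% of all detected genes called in either direction. The summed signal of the 5 was 4644.7 to 11512.3 in the high against 7289.7 to 21725.9 in the low muscling group. COL3A1, a fibrillar collagen, had a log2 difference of -1.08 (limma adjusted p = 0.0251). The 6 detected markers of fat cells had 0 calls, and without GPD1, whose signal is most of their sum, the other 5 summed to 856.4 to 4012.5 in the high against 911.6 to 4887.1 in the low muscling group. The part of connective tissue in the values of the members was not tested. With sire means as samples 0 genes of any kind were called between the groups, and without the progeny of sire 5 or 16 the count was 23 or 29. In the test among sires of the same group, given next, 2 of the 5 fibroblast markers were called, beside 22.0% of all detected genes. Each sire had progeny in 1 group only, so family and muscling cannot be told apart.

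Among sires of the same muscling group, FASN and SCD differed most, but 0 of 8 members were called. The test asked whether the 3 high muscling sires share 1 mean and the 3 low muscling sires share 1 mean (limma's moderated F with 4 degrees of freedom), and it called 22.0% of all detected genes. FASN had F = 3.06 (p = 0.0284, adjusted p = 0.0960) and SCD had F = 2.73 (p = 0.0438, adjusted p = 0.128). These were the 2 members with an unadjusted p under 0.05. ACLY had F = 2.21 (adjusted p = 0.203), and the adjusted p of LPL, ACACA, ADIPOQ, FABP4 and DGAT2 lay between 0.412 and 0.748.

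The progeny of sire 2 were high for FASN, with 145.2 to 997.7 and a median of 374.7. Those of sire 7 had 118.4, 186.9, 217.8 and 938.1, and those of sire 11 had 89.3 to 185.7 with a median of 111.95. The 8 progeny of sire 11 thus all lay below the median of sire 2. Among the low muscling sires the medians were 139.65 for sire 5, 178.95 for sire 16 and 118.7 for sire 17, and the 2 high animals of sire 5 stood at 1341.3 and 2015.7 above half-sibs that reached down to 114.8.

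SCD followed the same order in the high muscling group, with a median of 1169.3 for sire 2 (288.2 to 2910.4) and 267.35 for sire 11 (185.0 to 409.2). The progeny of sire 7 had 357.4, 360.2, 365.0 and 1836.0, so that 1 animal stood far above its half-sibs. The low muscling sires had medians of 274.85, 271.9 and 211.7. The result hung on which family was left out. Without the progeny of sire 5 both genes passed the threshold (limma adjusted p = 0.0113 for FASN and 0.0462 for SCD), while without those of sire 11 F was 0.69 for FASN (adjusted p = 0.761) and 0.85 for SCD (adjusted p = 0.705), and without those of sire 2 it was 1.79 and 1.56 (adjusted p = 0.330 and 0.388). FASN also passed without the 4 animals with the highest FASN (limma adjusted p = 0.00317). That choice was made after seeing the data and by FASN itself, which narrows its spread within sires and can raise F by construction. ACACA passed when the mean over its probe sets was used (limma adjusted p = 0.0275).

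Across the animals, FASN varied together with most members. Pearson's r of log2 signals was computed for FASN with each of the 6359 other detected genes, with two-sided p from 100000 permutations of the animals, adjusted over all of them. Of the 7 other members 6 were called with a positive r, beside 4.87% of the detected genes (a further 3.38% were called with a negative r). The permutations exchange animals between sires and so treat half-sibs as independent. With sire means removed and animals permuted within sires, the same 6 were called (permutation adjusted p of 0.0036 to 0.032). In that setting 453 of all 6359 genes were called in either direction. That FASN varies with ACLY and LPL was known from an earlier look at these data, so these 2 values are a description.

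SCD was the gene most like FASN of all 6359, with r = 0.90 and rho = 0.62 (permutation adjusted p = 0.00145 and 0.00424). Within the high muscling group r was 0.90 and within the low muscling group 0.92, and with sire means removed it was 0.88. ACLY was at rank 4 (r = 0.78, rho = 0.47) and LPL at rank 5 (r = 0.78, rho = 0.39). DGAT2 (r = 0.60), FABP4 (r = 0.57) and ADIPOQ (r = 0.50) were at ranks 64, 96 and 181, with permutation adjusted p of 0.00224, 0.00511 and 0.0248. The animals that lifted DGAT2 over the detection limit are those with the highest FASN, so its call is not independent of the filter. ACACA, whose product FASN uses, was not called (r = 0.36, adjusted p = 0.141).

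**Figure D3:**
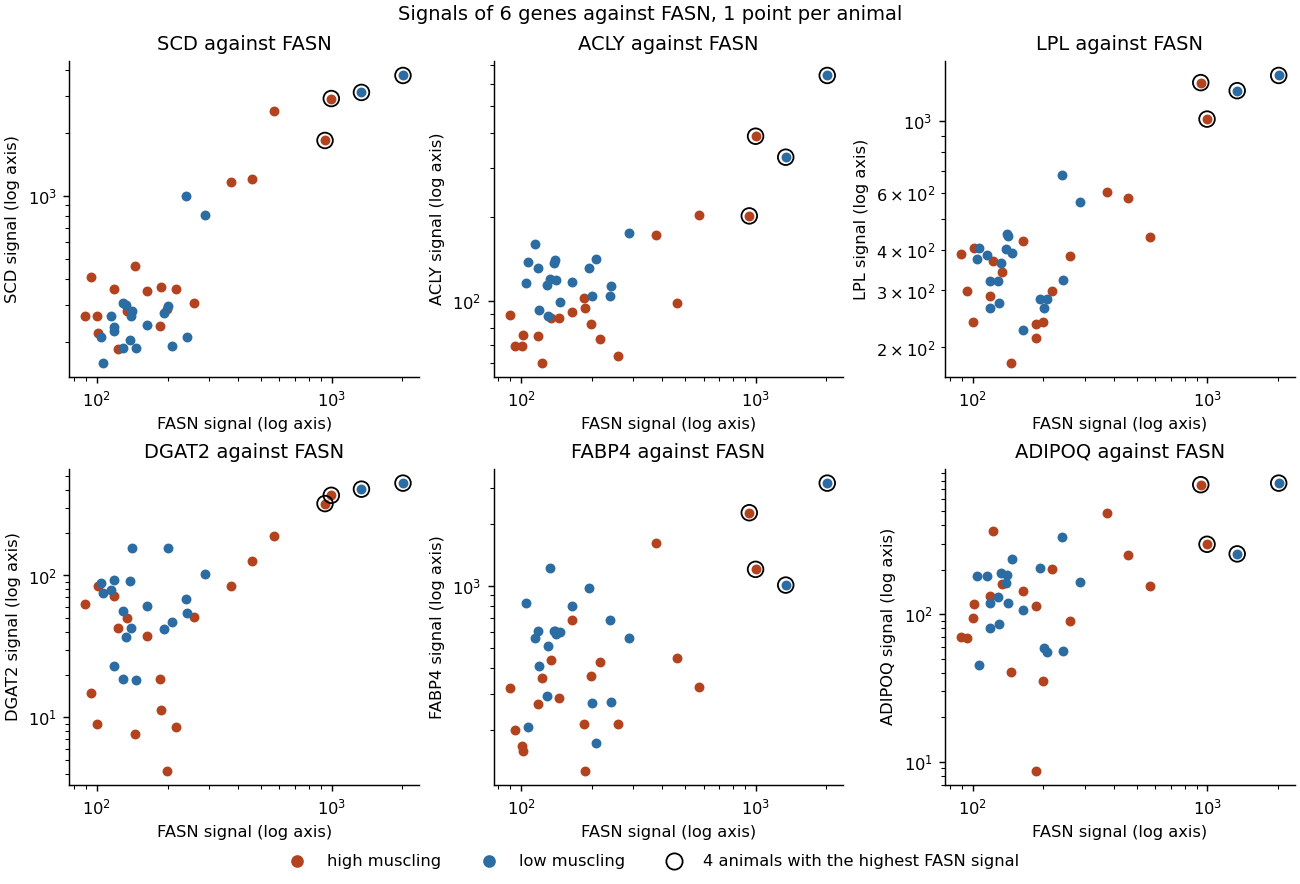
Signals of SCD, ACLY, LPL, DGAT2, FABP4 and ADIPOQ against FASN, all on log axes, 1 point for each of the 40 animals, with the 4 animals of highest FASN ringed. The upper right of each panel holds the ringed animals, and for SCD the widest gap lies between 9 animals from 809.4 upwards and the 31 at 460.2 or below.

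Fewer of these relations were called without the upper tail. Without animals 94 and 32 of sire 5, the 2 farthest from the median of FASN, r was 0.85 for SCD, 0.63 for ACLY, 0.65 for LPL and 0.46 for DGAT2, all still called, while FABP4 (r = 0.42, permutation adjusted p = 0.0803) and ADIPOQ (r = 0.39, adjusted p = 0.118) were not. Without the 4 animals with the highest FASN, SCD alone of the 7 remained called (r = 0.75, adjusted p = 0.00353). There ACLY had r = 0.38 (adjusted p = 0.149) and LPL r = 0.35 (adjusted p = 0.208). Leaving out animals by their FASN signal narrows the range of FASN, which tends to lower r with FASN by construction. This holds wherever the 4 animals are left out below. A call lost there does not by itself show that a relation rests on these animals. By rank, over all 40 animals, SCD and ACLY were the 2 members called. Of all 6359 genes, 407 were called by rank in either direction, 488 without the 2 animals and 297 without the 4.

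Whether SCD signals form separate clusters was not tested, and they were split at their widest gap on the log2 scale. Above it were 9 animals, 5 of high and 4 of low muscling, with SCD of 809.4 to 3750.9. In these SCD and FASN were related (r = 0.92, exact permutation p = 0.000989, and rho = 0.97, exact permutation p = 0.000165). Below it were 31 animals, 14 of high and 17 of low muscling, in which no relation was detected (r = 0.14, permutation p = 0.469, and rho = 0.19, p = 0.297). This split was made after seeing the values and on 1 of the 2 genes it relates, which narrows the range of SCD below the gap and lowers r there by construction. The 9 animals above the gap were chosen by SCD and include the 4 highest for FASN, so r and p there are a description.

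The other genes most like FASN were ACSS2 (r = 0.81), which activates acetate to acetyl-CoA, and ALAS1 (r = 0.81), the enzyme that starts haem synthesis, at ranks 2 and 3 with a permutation adjusted p of 0.00145 each. Both were still called without the 4 animals (r = 0.61 and 0.66). At the other end of the order, PDK4 had the most negative r (-0.76, adjusted p = 0.00170, rho = -0.75). It encodes a kinase that shuts off the entry of pyruvate into the citric acid cycle, and it was named after its values were seen. Without the 4 animals its r was -0.71 (adjusted p = 0.00353).

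ADIPOQ, a marker of fat cells that is no enzyme, was most like FABP4 and LPL among the members. Pearson's r with ADIPOQ was positive and called for 5 of the 7 other members, beside 1.9% of the 6359 detected genes (0.786% were called with a negative r). FABP4 was at rank 1 (r = 0.77, rho = 0.76, permutation adjusted p = 0.00530 and 0.00795) and LPL at rank 4 (r = 0.74, rho = 0.70). DGAT2 (r = 0.57), SCD (r = 0.52) and FASN (r = 0.50, adjusted p = 0.0481) were called, whereas ACLY (r = 0.47, adjusted p = 0.0715) and ACACA (r = 0.093, adjusted p = 0.837) were not. With sire means removed and animals permuted within sires, DGAT2 was not called (r = 0.55, permutation adjusted p = 0.0619). The other 4 members stayed called, and so were 417 of all 6359 genes in either direction.

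FABP4 and LPL were also the 2 members called by rank and the 2 called without the animals farthest from the median of ADIPOQ, which were animal 69 of sire 7 and animal 94 of sire 5 (r = 0.72 and 0.71). They were again the 2 members called without the 4 animals of highest FASN (r = 0.67 and 0.65, permutation adjusted p = 0.0212 each), where FASN had r = 0.19 (adjusted p = 0.701) and SCD r = 0.28 (adjusted p = 0.498). Of all 6359 genes, 144 were called with ADIPOQ by rank in either direction, 37 without its 2 farthest animals and 10 without the 4. The 4 animals are all among the 10 highest for ADIPOQ, so leaving them out narrows its range as well. Whether a member's r with ADIPOQ differs from its r with FASN was not tested. The remaining genes at the top of the order were GNAI1 (r = 0.76), a subunit of inhibitory G proteins, MGST1 (r = 0.76), a glutathione transferase of membranes, and NR2F1 (r = 0.69), a nuclear receptor.

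**Figure D4:**
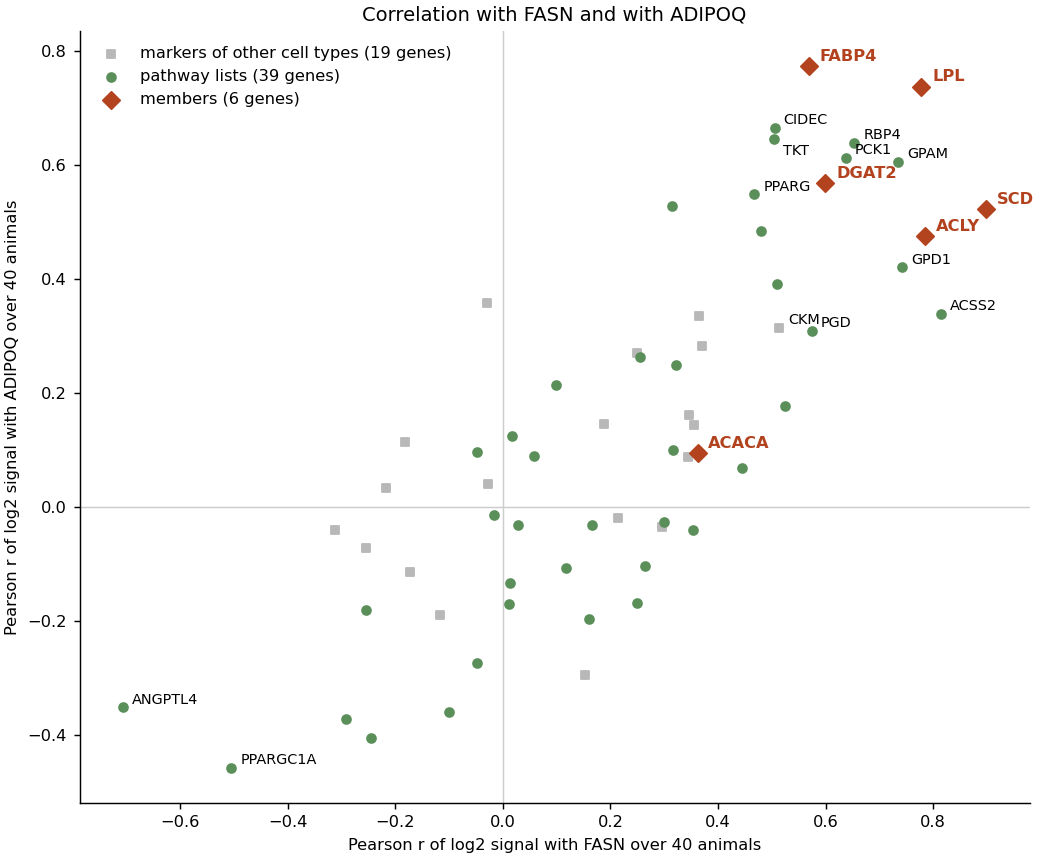
Pearson r of log2 signal with FASN (horizontal axis) and with ADIPOQ (vertical axis) over 40 animals for 6 members, 39 other genes of the pathway lists and 19 markers of other cell types. Of the members SCD lies farthest to the right (0.90 with FASN, 0.52 with ADIPOQ) and FABP4 highest (0.57 with FASN, 0.77 with ADIPOQ), and ACACA lies near the middle (0.36 and 0.093).

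The median r with FASN of 12 detected genes that supply substrate or act further in fatty acid synthesis was 0.40, beside 0.030 over all detected genes. With FASN 5 of the 12 were called, all with a positive r, beside 4.87% of all detected genes. ACSS2 led them, followed by PGD (r = 0.57) and TKT (r = 0.50), enzymes of the pentose phosphate pathway, THRSP (r = 0.52), a nuclear protein of lipogenic tissues, and FADS2 (r = 0.48), a desaturase. The means of THRSP and FADS2 were only just above the detection limit of 61.8. The median of THRSP was 58.7 in the high and 53.3 in the low muscling group, both below that limit. For FADS2 the medians were 49.4 in the high and 78.2 in the low muscling group. Their upper tails weigh in both the filter and r, so these calls may not be independent of the filter, which was not tested. Without the 4 animals of highest FASN, ACSS2 was the 1 gene of the 5 still called. For ADIPOQ 1 gene of the list was called, beside 1.9% of all detected genes. It was TKT (r = 0.65), which was not called without the 4 animals (permutation adjusted p = 0.127). Between the groups 1 of the 12 was called (8.33%), near the 7.78% of all detected genes. ELOVL5, an elongase of polyunsaturated fatty acids, had 221.8 to 422.6 in the high and 342.1 to 1016.8 in the low muscling group (log2 difference -0.44, limma adjusted p = 0.0332).

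Of 13 detected genes of fat storage and its breakdown, 5 were called with FASN, all with a positive r, beside 4.87% of all detected genes. The median r of the list with FASN was 0.25. GPD1 (r = 0.74) supplies the glycerol backbone and GPAM (r = 0.73) attaches its first fatty acid. PCK1 (r = 0.64) serves glycerol formation in fat cells, AQP7 (r = 0.51) is a glycerol channel and CIDEC (r = 0.51) is a droplet protein. GPD1 was still called without the 4 animals (r = 0.61, permutation adjusted p = 0.00964) and the other 4 genes were not. With ADIPOQ, CIDEC (r = 0.66), PCK1 (r = 0.61) and GPAM (r = 0.60) were called, beside 1.9% of all detected genes. None of these 3 was called without the 4 animals (permutation adjusted p = 0.109 to 0.237). The lipases LIPE (r = 0.26 with FASN and 0.26 with ADIPOQ) and PNPLA2 (r = 0.057 and 0.089) were not called with either.

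Between the groups 1 of the 13 storage genes was called (7.69%), a share near the 7.78% of all detected genes. CAV1, the caveolin of fat cells and endothelium, had 2650.8 to 4127.9 in the high and 3102.2 to 5465 in the low muscling group (log2 difference -0.37, limma adjusted p = 0.00868). Of the 21 low muscling animals 14 lay above every high muscling animal, and 7 of 19 high muscling animals lay below every low muscling one. In the same fit the 4 detected markers of endothelium had 0 calls. Their summed signal was 1394.2 to 2315.2 (median 1894.7) in the high and 1687.7 to 3018.6 (median 2395.5) in the low muscling group. The log2 differences were -0.30 for PECAM1 (limma adjusted p = 0.129), -0.28 for TEK, -0.13 for CDH5 and 0.24 for VWF. Whether endothelium has a part in the difference of CAV1 was not tested. CAV1 was also called among sires of the same muscling group (limma's moderated F, adjusted p = 0.00883).

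Of 8 detected regulators, 0 were called between the groups, beside 7.78% of all detected genes. With FASN 1 was called at a positive r and 1 at a negative r, beside 4.87% and 3.38%, and the median r was -0.018. PPARG, the nuclear receptor that drives fat cell formation, had r = 0.47 with FASN (permutation adjusted p = 0.0378) and r = 0.55 with ADIPOQ (adjusted p = 0.0242), and was called with neither without the 4 animals. PPARGC1A, a coactivator of oxidative metabolism, had r = -0.51 with FASN (adjusted p = 0.0163), and -0.25 without the 4 animals (adjusted p = 0.389). SREBF1, the regulator known for switching on FASN and SCD in liver and fat, had r = 0.011 with FASN (adjusted p = 0.977), but r = 0.47 without the 4 animals (adjusted p = 0.0680). MLXIPL, a glucose-responsive activator of the same genes, had r = 0.029 (adjusted p = 0.940), and 0.26 without the 4 animals (adjusted p = 0.375). SREBF1 and MLXIPL were named after their values were seen.

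Of 6 detected genes for hormones and other secreted proteins, 0 were called between the groups, beside 7.78% of all detected genes. RBP4, the carrier of retinol, was called with both FASN (r = 0.65) and ADIPOQ (r = 0.64), and with neither without the 4 animals (r = 0.32 and 0.49, permutation adjusted p = 0.256 and 0.157). ANGPTL4, a secreted inhibitor of LPL, was called with FASN at a negative r of -0.71 (permutation adjusted p = 0.00394), and at -0.61 without the 4 animals (adjusted p = 0.0256). By rank its relation did not pass (rho = -0.38, adjusted p = 0.111). NNAT, a small membrane protein, was called with ADIPOQ (r = 0.53), but not without the 4 animals (r = 0.39, adjusted p = 0.312). APOE, a lipoprotein component, was called with neither and differed by -0.32 between the groups (limma adjusted p = 0.368). CFD, also a listed marker of fat cells, was called with neither (r = 0.013 and -0.13, permutation adjusted p = 0.974 and 0.743). Nor was SFRP5 (r = 0.32 and 0.25, permutation adjusted p = 0.187 and 0.448). CFD and SFRP5 are named to complete the list.

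Of the markers of the other cell types, 1 of 19 was called with FASN at a positive r (5.26%, beside 4.87% of all detected genes) and 0 with ADIPOQ (beside 1.9%). CKM, the muscle creatine kinase, was the 1 called with FASN (r = 0.51, permutation adjusted p = 0.0185). The other 5 markers of muscle fibres, 4 of endothelium, 5 of fibroblasts, 3 of macrophages and 1 of red blood cells had 0 calls with FASN. The median r with FASN was 0.35 for the markers of muscle fibres and -0.18 for those of endothelium. Without the 4 animals of highest FASN, CKM (r = 0.53), MYH1 (r = 0.49), a fast myosin, and VWF (r = -0.58), a marker of endothelium, were called with FASN. There 297 of all 6359 genes were called in either direction. The macrophage markers summed to 204.8 to 426.1 in the high and 244.7 to 709 in the low muscling group, and HBA, the 1 detected marker of red blood cells, had 72.6 to 220.5 in the high and 64.3 to 223.6 in the low muscling group.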

How the data were processed

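Total RNA of LM muscle from 40 sheep was hybridised to the GeneChip Bovine Genome array, with 1 array for each. The values the authors deposited are MAS5 signals, an intensity on a linear scale, and no version of MAS5 is given in the sources used here. The mean of the middle values of each array, with 2% trimmed at each end, was 200.073 to 200.087. Signals were taken to log2 with no further normalization. Groups and sires came from the sample labels, which give no batch. Probe sets were named from the platform annotation: 13292 had 1 gene symbol, 86 several and 10638 none. Present flags were not used.

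The comparison of muscling groups used limma 3.58.1 (R 4.3.3) over the 6360 genes detected, sire being a random block (correlation 0.135), and that of sires within groups had sire as a fixed factor. Correlations were computed with numpy 2.4.6 and scipy 1.17.1 in Python 3.11.15. The routines were tested on simulated data. The named genes are the members, the list genes called or else the 2 with the smallest p, and the 5 genes most like FASN or ADIPOQ. Members and lists were chosen with earlier results of these data known. Alternatives were quantile normalization, median centring, a floor on low signals, no detection filter, other handling of probe sets, no block, sire means, each sire left out, Spearman correlation and linear signals. The annotation names no genome build for the probe sets, and no sequences or promoter motifs were analysed here.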

Additional observations from a re-analysis of the deposited data

Results flagged for a closer look

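In 4 of 54 sets of values (9 genes in 6 sires) 1 animal stood apart from its half-sibs beyond the limit of Dixon's test at 95%, which chance exceeds in about 1 in 20 sets. The SCD signal of animal 98 of sire 7, in the high muscling group, was 1836, while the other 3 progeny of that sire had 357.4 to 365. In the low muscling group, animal 65 of sire 16 had an SCD signal of 809.4, against 186.9 to 299.9 in its half-sibs, and animal 71 of sire 17 had 995.8, against 159.3 to 237. ADIPOQ was 771.2 in animal 94 of sire 5, against 118 to 255.7 in the other progeny of that sire.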

How the results depend on the processing

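Of 336 values of single members under the alternatives (apart from those without 1 animal), 288 kept their direction and their side of the threshold, 41 crossed it and 7 turned direction. These counts pool the correlations with the limma tests, in which 0 members were called at first, so that no call could be lost there. The F among sires has no direction. Most crossings were lost calls of correlations. With FASN, ADIPOQ kept its side in 3 of 8 alternatives, FABP4 in 4 and SCD in 8. Between high and low muscling 0 members were called under every alternative, while the count over all detected genes, 495, moved to 1187 with every probe set on its own, to 1586 with no block and to 0 with sire means as samples. It was 290, 272, 23, 29 and 1221 without the progeny of sires 2, 7, 5, 16 and 17, and 394 to 617 without 1 animal. Directions turned for ACACA with the mean over probe sets (-0.238), FASN without the progeny of sire 2 (-0.206), LPL without those of sire 11 (0.0392) or sire 5 (0.113) and ADIPOQ without those of sire 5 (0.156). The difference of ADIPOQ ranged over -0.347 to 0.145 without 1 animal, and was 0.145 without animal 69 of sire 7. Among sires the count of 1402 fell to 407 without the progeny of sire 11 and to 846 without those of sire 17. There 0 members were called, but 1 with the mean over probe sets, 1 without the 4 animals with the highest FASN and 2 without sire 5.

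With FASN 525 genes were called, and 228 on signals not in log2, 219 and 121 within the high and the low muscling group alone, which hold fewer animals, and 297 without the 4 animals. Members called with FASN numbered 2 by Spearman correlation, 2 in low muscling alone and 1 without the 4 animals. With ADIPOQ 171 genes were called, and 417 with sire means removed, 37 without the 2 animals farthest from its median, 10 without the 4 animals, and 5 and 12 within the high and the low muscling group alone. Members called with ADIPOQ numbered 2 by Spearman correlation, 2 without the 2 animals, 2 without the 4 animals, and 0 and 1 within the high and the low muscling group alone. The r of ACACA with ADIPOQ turned to -0.0256 within high muscling alone and to -0.0564 without the 4 animals. The cause of these shifts was not tested. No paired analysis was possible because each sire had progeny in 1 group only and replicates carry no shared number. Signals near the detection limit, those of ACACA, DGAT2 and LEP above all, limit what could be seen of these genes. Leaving out the 4 animals, or 1 animal at a time, and the split of SCD were chosen after seeing the data. The 4 animals were chosen by FASN itself, which bears on every result for FASN without them.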
